A study of Drosophila melanogaster with 3 samples.

Results

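Promoter summits of FoxP that lay at or upstream of the start of a single gene were examined in whole Drosophila melanogaster prepupae. A summit is the position of strongest signal in a bound region. Members were the regions of the authors' thresholded dm6 list with a summit within 500 bp of a transcription start of exactly 1 protein-coding gene, at or upstream of the nearest start of that gene. The rule kept 647 of the 2395 thresholded regions on the chromosome arms, and these belonged to 580 genes. Another 20 thresholded regions were mitochondrial and were left out. On the arms, 170 summits lay downstream of the start of a single gene, 272 lay within 500 bp of starts of several genes, and 1306 lay farther from any start. All 3 samples are biological replicates of 1 group: prepupae of both sexes, age not known, from 1 transgenic line in which FoxP (fd85E) carries eGFP at its C-terminal end. Chromatin was sheared by sonication to 200 to 800 bp and precipitated with an antibody against GFP, so the tagged protein and not native FoxP was followed. Tissues were not separated, and strong binding in few cells and weak binding in many cannot be told apart. The group has no second genotype or treatment, so the comparisons are between replicates and between classes of region. Depth per library is unknown, since the files are peak lists without read counts.

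FoxP belongs to the forkhead transcription factors, a family whose members bind DNA through a winged-helix domain and prefer sites with the core TGTTTA or TATTTA. In flies it is known mainly for roles in neurons, learning and motor behaviour. The DNA just before a start holds the core promoter and the sites of promoter-proximal factors. Fly promoters fall into broad kinds: those of housekeeping and ribosomal genes often carry sites of DREF, while those of developmental genes often carry an initiator and GAGA factor sites, which GAGA factor uses to keep DNA free of nucleosomes.

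The sequences at the strongest members show what lies under these summits. The following are 6 of the members with the highest signal values, chosen because no annotated UTR lies in the window, as 60 bp either side of the summit, on the strand of the gene (dm6, RefSeq release 6 genome). Capitals mark the forkhead core TGTTTA and the GAGA core GAGAG, on either strand.
CG14100: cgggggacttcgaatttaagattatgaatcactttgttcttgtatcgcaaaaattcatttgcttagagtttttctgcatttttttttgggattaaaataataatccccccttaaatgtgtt
larp: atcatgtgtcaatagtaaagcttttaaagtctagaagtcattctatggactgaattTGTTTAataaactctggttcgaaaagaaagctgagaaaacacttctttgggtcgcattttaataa
Hsp27: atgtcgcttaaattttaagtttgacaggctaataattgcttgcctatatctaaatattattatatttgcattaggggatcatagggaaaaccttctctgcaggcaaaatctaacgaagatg
CG18549: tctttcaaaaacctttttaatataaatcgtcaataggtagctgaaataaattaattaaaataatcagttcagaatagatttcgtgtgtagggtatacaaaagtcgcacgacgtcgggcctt
CG13921: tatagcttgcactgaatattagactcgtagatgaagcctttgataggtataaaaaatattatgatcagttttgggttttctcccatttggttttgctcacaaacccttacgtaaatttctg
Syp: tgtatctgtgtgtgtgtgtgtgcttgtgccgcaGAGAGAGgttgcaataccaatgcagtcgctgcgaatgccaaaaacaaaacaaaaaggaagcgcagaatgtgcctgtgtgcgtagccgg
In order these windows are chr3L:19590545-19590665, minus strand, chr3R:28326543-28326663, minus strand, chr3L:9383842-9383962, plus strand, chr3R:12449134-12449254, plus strand, chr3L:1746728-1746848, plus strand, and chr3R:20778601-20778721, plus strand. Only the window of larp held TGTTTA, which began 4 bp before the summit, and only that of Syp held GAGA cores, with 2 overlapping matches. The other 4 windows held neither. The other forkhead form, TATTTA, was not marked, and its opposite strand TAAATA occurs in the window of Hsp27.

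Summits near the start of a single gene lay mostly on its upstream side. In the pooled thresholded list 79.2% of the 817 single-gene promoter summits were upstream (95% Wilson interval 76.3 to 81.8), a share that follows from the sorting of the list into classes and is given as a description. The same share was taken from each replicate's own best-ranked regions, as many as the thresholded list holds. The replicates are separate libraries, though their lists share 1 control. Their reads also make up the pooled list, so their shares are not independent of it and are a description too. The upstream share was 75.1% of 882 summits in replicate 1, 77.9% of 763 in replicate 2 and 75.5% of 865 in replicate 3. All 3 replicates were above an even placement of 50%, by 26.1 ± 1.50 percentage points (SD, n = 3). The exact 2-sided sign-flip permutation test over the 3 replicates gave p = 0.25, the smallest p that 3 replicates allow, so the test could not pass. Weak summits of the same lists, from rank 10001 on, were also above 50%, at 56.9%, 54.4% and 56.4%.

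The upstream share was lower at lower ranks. Within the thresholded list it was 83.7% at ranks 1 to 800, 78.6% at ranks 801 to 1600 and 75.0% from rank 1601 to the end. Among pooled regions below the threshold it was 63.5% in the next tier of the same size, which starts at rank 2416, 58.9% from rank 4831 to 10000 and 56.1% at ranks 10001 to 30000, the last being 1540 of 2746 background summits. In that second tier of their own lists the replicates gave 63.9%, 66.2% and 61.0%. From rank 10001 to the end of each list they gave 56.9%, 54.4% and 56.4%. Of the 3 tiers, the best-ranked had the highest upstream share in every replicate and the weakest had the lowest.

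**Figure D1:**
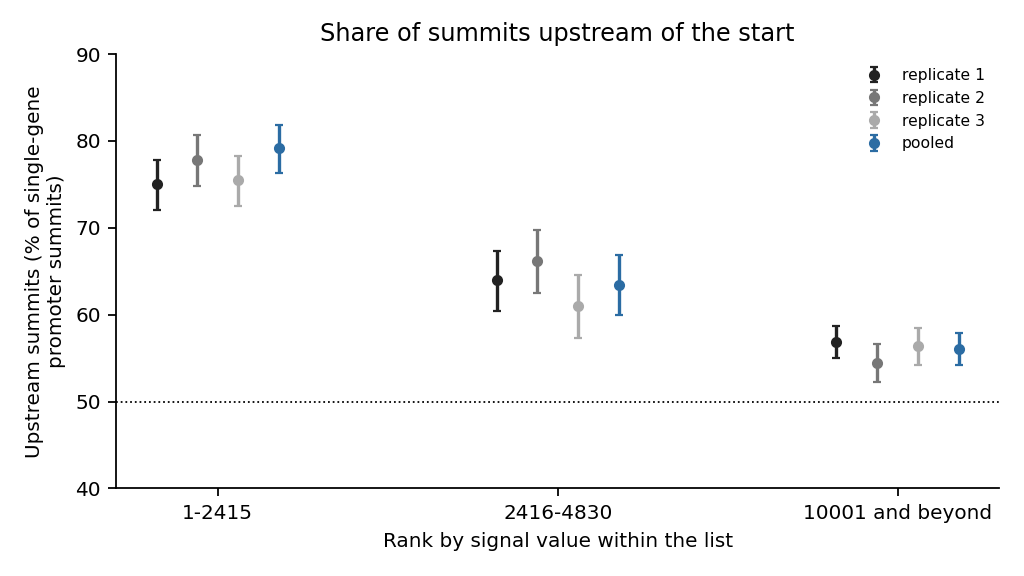
Share of single-gene promoter summits that lay upstream of the start (% on the vertical axis) in tiers of rank by signal value, for each replicate's own list and the pooled list. Bars are 95% Wilson intervals and the dotted line is 50%. The best tier lies between 75.1% and 79.2% and the last between 54.4% and 56.9%.

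The members were spread over the whole window before the start, with a median distance of 163 bp and quartiles of 88.5 and 258.5 bp. There were 104 summits at 0 to 50 bp, 81 at 51 to 100 bp, 204 at 101 to 200 bp, 181 at 201 to 350 bp and 77 at 351 to 500 bp. Per base of window, 2.04 members lay at 0 to 50 bp, 1.62 at 51 to 100 bp, 2.04 at 101 to 200 bp, 1.21 at 201 to 350 bp and 0.513 at 351 to 500 bp. Downstream of the start the counts at the same distances were 55, 19, 30, 25 and 41, so that downstream summits were fewer in all 5 bins. For each member the replicate summit nearest to the pooled one, within 200 bp, was also taken. Its median distance was 164.5, 165.5 and 168 bp in replicates 1, 2 and 3 (mean 166 ± 1.80 bp, SD, n = 3). The matching ties these medians to the pooled one, so their spread is not that of independent measures. Without matching, upstream single-gene summits among each replicate's own best-ranked regions had medians of 161, 169.5 and 162 bp.

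**Figure D2:**
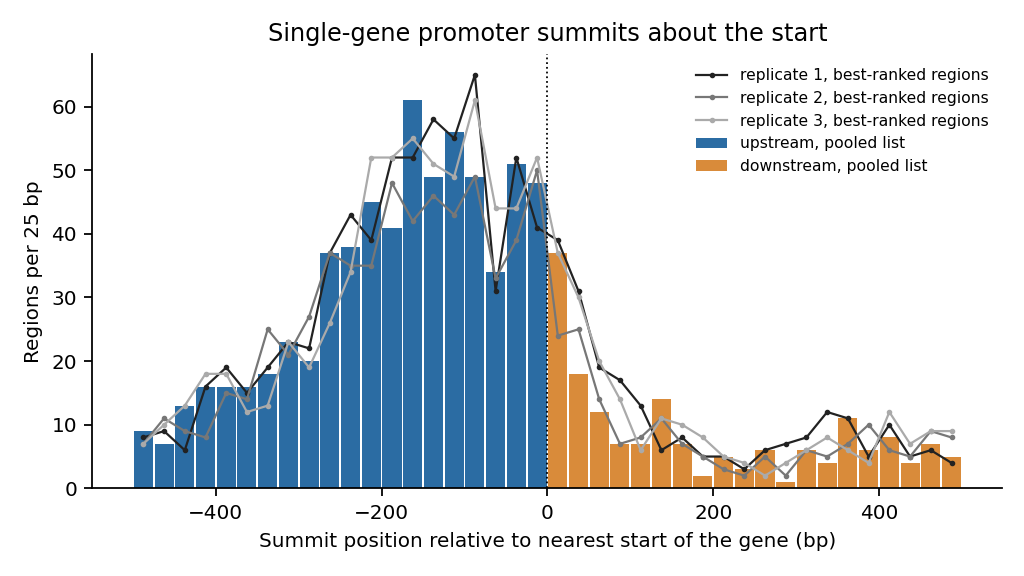
Number of single-gene promoter summits per 25 bp (vertical axis) by position relative to the nearest start of the gene in bp (negative is upstream). Bars are the pooled thresholded list, 647 upstream and 170 downstream, and lines are the same number of best-ranked regions of each replicate, which follow the same outline.

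The side of the summit was mostly the same in all replicates for members 51 to 200 bp from the start. Replicate summits were taken as matching within 200 bp of the pooled one, so a member 201 to 500 bp upstream could not have a matched summit on the other side, and the 246 such members with a match in every list are left out of the count. Of the 369 members at 0 to 200 bp with a match in every list, 321 had all 3 summits upstream (87.0%, 95% Wilson interval 83.18 to 90.05). The corresponding share for downstream summits at 0 to 200 bp was 68.8% (66 of 96, interval 58.9 to 77.1). The classes are filled differently within that range, so the shares were also taken by distance. At 0 to 50 bp 57 of 96 members (59.4%, interval 49.4 to 68.7) had all 3 summits upstream, and 26 of 54 downstream summits (48.1%, interval 35.4 to 61.1) had all 3 downstream. The counts at 51 to 100 bp were 70 of 77 for members and 15 of 16 for downstream summits. At 101 to 200 bp they were 194 of 196 and 25 of 26. The intervals of the classes overlapped in each of these 3 bins. The pooled list is made from the same reads, so these shares are not independent of the rule. Over the 615 members with a match in every list, the 3 replicate summits spanned a median of 43 bp (quartiles 22.5 and 81.5 bp). A summit under 50 bp from the start is thus within the scatter between replicates, and its side is uncertain. The span describes agreement between summits chosen as nearest to the pooled one. How exactly a summit marks a bound site was not measured, and fragments of 200 to 800 bp were common to all 3 replicates.

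Signal values, the authors' own score for a region with no stated scale and no replicate error, were highest in the middle of the window. Their median was 200 over all members (quartiles 161 and 288, range 134 to 1867). By distance it was 171 at 0 to 50 bp, 190 at 51 to 100 bp, 228 at 101 to 200 bp, 211 at 201 to 350 bp and 192 at 351 to 500 bp. The share of members that overlapped by at least 1 bp one of the best-ranked regions of each of the 3 replicates, called held below, was also lowest next to the start, with 45.2% (95% Wilson interval 36.0 to 54.8) at 0 to 50 bp, 69.1% (62.5 to 75.1) at 101 to 200 bp and 70.7% (63.7 to 76.9) at 201 to 350 bp. No test over regions was made of these differences. The list was thresholded on the signal value, so low values are missing in every bin.

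**Figure D3:**
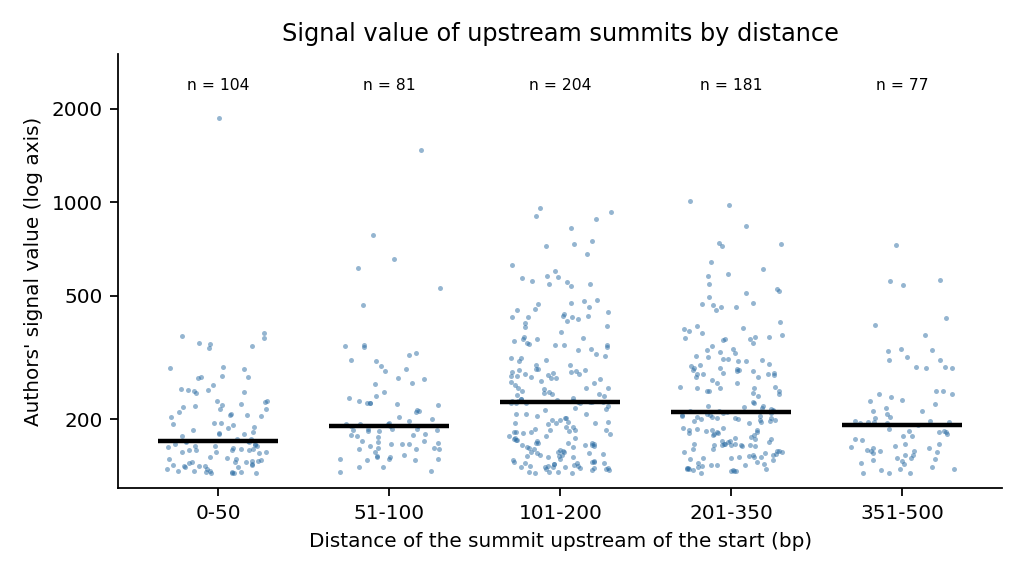
Authors' signal value of each of the 647 members (log axis) by distance of the summit upstream of the start in bp. Points are regions and bars are medians, which run from 171 in the bin nearest the start to 228 at 101 to 200 bp.

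Upstream summits were held more often than downstream ones in each replicate, a difference that 3 replicates cannot test. All 3 replicates held 410 of the 647 members (63.4%, 95% Wilson interval 59.6 to 67.0), against 87 of 170 downstream summits (51.2%, 43.7 to 58.6) and a background of 59.1% over all thresholded arm regions. The background includes the members. A further 165 members were held by 2 replicates, 70 by 1, and 2 by none, cin and CG9737, which were named after their values were seen. A single replicate held 83.9%, 82.4% or 85.6% of the upstream summits and 77.1%, 77.6% or 77.1% of the downstream ones, for replicates 1, 2 and 3. Every upstream value lay above every downstream value. The difference was 6.72 ± 1.92 percentage points (SD, n = 3), positive in 3 of 3 replicates (exact sign-flip permutation test, p = 0.25, the smallest possible). The median rank in the replicate's own list was 1105.5, 1243 and 1110 for upstream summits and 1421, 1424 and 1370 for downstream ones, where a smaller rank is stronger. That difference of -252 ± 67.6 ranks had the same direction in 3 of 3 replicates (exact sign-flip permutation test, p = 0.25). The classes differ in distance, with 104 of 647 members and 55 of 170 downstream summits at 0 to 50 bp. Members at that distance were held least often, and held shares of the classes were not compared by distance. Shared promoter summits were held at 79.4%, 90.4% and 76.1% in replicates 1, 2 and 3, above the members in replicate 2 only. Median signal values in the pooled list were 200 upstream, 181 downstream, 201 at shared promoters and 188 away from starts, so that upstream and shared summits were nearly equal.

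The strongest member lay 22 bp before the start of Ugalt, which encodes a UDP-galactose transporter (X, 2703715 to 2704041, signal value 1867). Its signal values in replicates 1, 2 and 3 were 614, 684 and 571, and its ranks 21, 1 and 9. The replicates placed its summit 24, 39 and 24 bp upstream (-24, -39 and -24 bp on the signed scale), so it was among the members near the start whose side was the same in all lists. The next, at CG14100 (3L, 19590473 to 19590761), had 1479 in the pooled list and 460, 587 and 435 in the replicates. Signal values of different lists were not compared with each other, since their scale is not stated.

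Further strong members were placed more than 100 bp before the start. At larp, which encodes a La-related RNA-binding protein of translation control, the summit was 339 bp upstream (3R, 28326472 to 28326737, signal value 981, replicate values 338, 387 and 255). At the small heat shock gene Hsp27 it was 161 bp upstream (3L, 9383765 to 9384042, 961, replicate values 311, 380 and 286). The summit of CG18549 was 102 bp upstream (3R, 12449042 to 12449301, signal value 932), that of CG13921 119 bp (3L, 1746655 to 1746892, 906) and that of CG1888 222 bp (2R, 9547058 to 9547312, 1011). mRpL41, a gene for a mitochondrial ribosomal protein, had a summit 147 bp upstream (2R, 15217619 to 15217887, 884), which the replicates placed at 147, 150 and 147 bp (-147, -150 and -147 bp signed). All of these were held by all 3 replicates.

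The other members among the 20 with the highest signal values covered several kinds of gene. Syp, which encodes the RNA-binding protein Syncrip, had 841 (3R, 20778559 to 20778766), and Tina-1 had 827 (2R, 24942416 to 24942715). Dll, the homeobox gene that specifies distal appendages, had 787 (2R, 24814598 to 24814848), 97 bp before its start, and replicate values of 255, 266 and 271. Trp1, which encodes a component of the ER translocon, had 752 at 108 bp, CG31145 739 at 204 bp, and Rtnl1, an ER-shaping reticulon, 737 at 257 bp. The glycolytic gene Gapdh2 had 732 at 183 bp and the Polycomb group gene ph-p 729 at 453 bp. Sox14, an ecdysone-induced transcription factor gene, had 723 at 257 bp, with replicate values of 202, 335 and 174. Hpf1, a cofactor of PARP in histone modification, had 723 at 101 bp, Fkbp14, an ER prolyl isomerase gene, 683 at 108 bp, and eIF6, a factor that keeps ribosomal subunits apart, 655 at 88 bp. ph-p has a near-identical neighbour, ph-d, which was a member too (255 at 283 bp), so the values of the pair are uncertain. The summit of eIF6 lay inside the gene ytr.

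Members at the limits of the rule had signal values from 135 to 341, some below the lower quartile of all members and some above the upper one. Just inside the 500 bp limit were CG32512 (500 bp, signal value 293), CG15172 (496 bp, 135) and daw (491 bp, 182). The next summits upstream of a single gene beyond the limit were those of lawc (508 bp, 249), sick (511 bp, 229) and Pino (512 bp, 156). Exactly on a start, counted as upstream, were eEF1gamma (341), Thor (174), nuf (166) and Trx2 (160). The lowest signal value among the members was 134, at Irp-1A.

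Cytoplasmic ribosomal protein genes had upstream summits, and these crowded at the start. Of 93 genes 16 had one (17.2%, 95% Wilson interval 10.9 to 26.1), against a background of 4.15% over all 13968 protein-coding genes. Their median distance was 25.5 bp, against 163 bp over all members. Here and for the lists below, the 4.15% was not matched to the list for the number of starts per gene. The rule gives a gene with more starts more windows. The highest signal values were at RpL24 (378, 10 bp upstream), RpL27 (293, 29 bp), RpS12 (290, 9 bp) and RpL11 (274, 23 bp). At RpL24 the replicates placed the summit at 21, -25 and -1 bp from the start, and at RpS12 at -6, -8 and 10 bp, so the side differed between replicates. The side also differed at RpS10b, RpS15Aa, RpS7, RpS28b and RpL23, where at least 1 replicate placed the summit downstream. The other ribosomal members were upstream in every replicate, RpL27 at -2, -48 and -46 bp. A further 9 genes of the list had a downstream single-gene summit. RpS14b, also a member (144), has a near-identical neighbouring copy, which makes its value uncertain.

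Other lists of broadly expressed genes, and the cuticle protein and chemosensory receptor genes, had smaller shares than the ribosomal list. The differences were not tested. All of the lists that follow had a 95% Wilson interval that included the 4.15% of all protein-coding genes, except the chemosensory receptor genes. Translation factor genes had upstream summits at 5 of 57 (8.77%, interval 3.81 to 18.9), namely larp, eIF6, eEF1gamma, eEF1alpha1 (216, 25 bp) and Thor, the 4E-BP gene that restrains cap-dependent translation. Of 75 mitochondrial ribosomal protein genes only mRpL41 had one (1.33%). There was none at 48 proteasome genes or 86 genes of the respiratory chain and ATP synthase, counts that allow shares of up to 6.25% and 3.49%. The limit for the proteasome genes lies above the share over all genes, and that for the respiratory chain genes below it, though their Wilson interval reaches 4.28%. Splicing and RNA processing genes had 1 of 47 (2.13%; Sf3b3, 134), vesicle transport genes 2 of 103 (1.94%; Syx4, 251, and Rab5, 247) and cytoskeleton genes 3 of 52 (5.77%; WASp, 195, Moe, 158, and chic, 141). Of 122 cuticle protein genes 1 had an upstream summit (0.820%; Cpr72Eb, 224), and of 179 chemosensory receptor genes none, which allows up to 1.68%.

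Heat shock and chaperone genes had upstream summits at 6 of 23 genes (26.1%, 95% Wilson interval 12.5 to 46.5), against 4.15% of all protein-coding genes. Their median distance was 174.5 bp. Next to Hsp27 these were the HSP90 gene Hsp83 (467, 100 bp), the small heat shock genes Hsp26 (363, 110 bp) and Hsp22 (134, 410 bp), the DnaJ gene mrj (227, 329 bp) and stv (189, 188 bp), a BAG family co-chaperone gene. Ranks of Hsp83 were 96, 327 and 121 in replicates 1, 2 and 3. The region with the nearest summit at stv had ranks 1190, 23584 and 1729. In replicate 2 that region was near the bottom of the list, and a different, best-ranked region overlapped the member. All but Hsp22 were held by all 3 replicates.

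Ecdysone response genes, which follow the steroid pulses that drive metamorphosis, had upstream summits at 9 of 27 (33.3%, 95% Wilson interval 18.6 to 52.2), against 4.15% of all protein-coding genes. Their median distance was 172 bp. After Sox14 the highest was E23, an ABC transporter gene (421, 172 bp). The transcription factor gene Eip93F (342) had its summit 75 bp upstream and the Ets gene Eip74EF (221) 212 bp upstream. The death gene hid had 207 at 263 bp, the coactivator gene tai 189 at 153 bp, and ImpE3 160 at 138 bp. The nuclear receptor genes Eip75B and Eip78C were close to the threshold of the list, Eip75B with 145 at 173 bp and Eip78C with 134 at 21 bp. Of the 9, 6 were held by all 3 replicates, and Eip78C had no matching region in replicate 2. Among the held genes, the region with the nearest summit was not always best-ranked. Its ranks in the replicates, in order, were 4828, 1895 and 446 at Eip74EF and 4001, 2744 and 1824 at Eip75B. The ranks of 4828, 4001 and 2744 lie outside the best-ranked regions, and there a different, best-ranked region overlapped the member, as at stv.

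The remaining lists had between 2 and 7 genes each, to be read against the 4.15% of all protein-coding genes. Notch pathway genes had upstream summits at 5 of 27 (18.5%, 95% Wilson interval 8.18 to 36.7), all held by all 3 replicates: the corepressor gene gro (438, 115 bp), numb (337, 145 bp), the coactivator gene mam (244, 34 bp) and the bHLH repressor genes E(spl)m7-HLH (204, 404 bp) and E(spl)m3-HLH (180, 377 bp). Genes of the JNK, EGF receptor and Ras pathways had 6 of 33 (18.2%, interval 8.61 to 34.4), led by the JNK phosphatase gene puc (345, 53 bp) and the ligand gene spi (214, 175 bp), then Src64B (209) and the antagonist gene aos (170). Of the 6 genes, 3 were held by all 3 replicates, and Egfr itself (144) by 1. Insulin and TOR genes had 6 of 29 (20.7%, interval 9.85 to 38.4), among them SNF4Agamma, the regulatory subunit of AMPK (287, 189 bp), Pi3K21B (272, 29 bp), Pdk1 (252, 314 bp) and the receptor gene InR (178, 70 bp). Developmental transcription factor genes had 7 of 51 (13.7%, interval 6.81 to 25.7), namely Dll, Sox14, elav (469, 221 bp), pnt (199), sd (169), ush (166) and emc (156). The last 3 lists had intervals that included the share over all genes. Chromatin genes had 3 of 41 (7.32%, interval 2.52 to 19.4), which were ph-p, ph-d and Sin3A (295). Forkhead genes had 2 of 18 (11.1%, interval 3.10 to 32.8), fkh (253 at 229 bp) and CHES-1-like (248 at 336 bp). Apoptosis and autophagy genes had 2 of 34 (5.88%, interval 1.63 to 19.1), hid and Diap1 (166). hid, Sox14 and Thor each stood in more than 1 list. No enrichment test was made, and the intervals cover counting error over genes only.

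**Figure D4:**
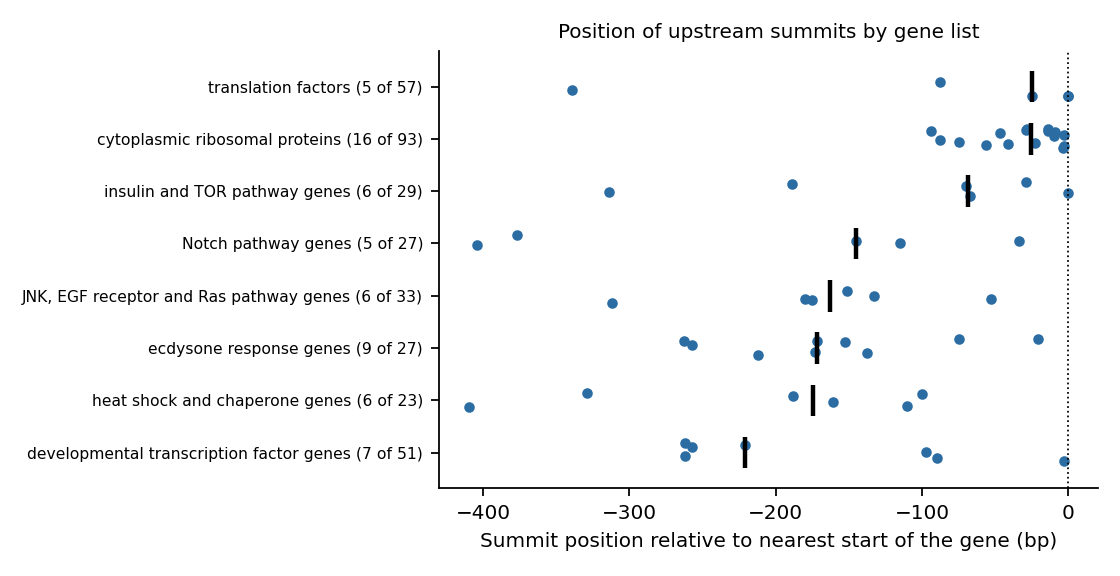
Position of each upstream summit relative to the nearest start (bp, negative is upstream) for the lists with at least 5 genes, with the strongest summit per gene. Points are genes and bars are medians. Ribosomal protein genes lie within 94 bp of the start, while ecdysone response and heat shock genes reach from 21 to 263 bp and from 100 to 410 bp.

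Letters of the 100 bases before the start are shown for 3 members each of the ribosomal, heat shock and ecdysone lists with no annotated UTR in the window, because the lists differed in motif content. Each sequence ends 1 base before the start and is on the strand of the gene. Capitals mark GAGAG, the TATA box TATAAA and the DREF site TATCGATA on either strand.
RpL24: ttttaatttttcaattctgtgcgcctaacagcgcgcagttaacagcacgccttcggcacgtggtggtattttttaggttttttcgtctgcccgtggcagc
RpL27: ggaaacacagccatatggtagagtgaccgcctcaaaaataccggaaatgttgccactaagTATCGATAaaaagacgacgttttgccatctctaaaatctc
RpS12: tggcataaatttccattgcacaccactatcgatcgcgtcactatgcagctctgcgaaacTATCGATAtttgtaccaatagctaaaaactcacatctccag
Hsp27: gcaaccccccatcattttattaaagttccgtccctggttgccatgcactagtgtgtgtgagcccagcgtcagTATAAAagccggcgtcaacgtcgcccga
Hsp26: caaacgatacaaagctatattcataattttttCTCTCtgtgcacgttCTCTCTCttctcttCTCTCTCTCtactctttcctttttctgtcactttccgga
stv: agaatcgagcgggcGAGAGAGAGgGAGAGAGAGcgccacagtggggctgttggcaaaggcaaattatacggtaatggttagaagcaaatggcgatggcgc
E23: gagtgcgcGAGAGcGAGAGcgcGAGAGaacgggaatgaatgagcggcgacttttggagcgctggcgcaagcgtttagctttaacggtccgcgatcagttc
Eip93F: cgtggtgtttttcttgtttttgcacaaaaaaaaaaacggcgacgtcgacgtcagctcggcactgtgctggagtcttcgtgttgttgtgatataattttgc
Eip74EF: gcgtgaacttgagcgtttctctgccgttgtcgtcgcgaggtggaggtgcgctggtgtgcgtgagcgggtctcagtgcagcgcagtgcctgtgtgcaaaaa
In order these are chr2L:13395132-13395231 (minus strand), chr3R:25685052-25685151 (minus), chr3L:13023252-13023351 (plus), chr3L:9383963-9384062 (plus), chr3L:9377428-9377527 (minus), chr3L:13477441-13477540 (plus), chr2L:3354830-3354929 (minus), chr3R:21972279-21972378 (plus) and chr3L:17619326-17619425 (minus). RpL27 and RpS12 each had 1 DREF site and no GAGA core, Hsp27 had 1 TATA box, and Hsp26 and stv each had 6 overlapping GAGA cores. E23 had 3 GAGA cores, and RpL24, Eip93F and Eip74EF had none of the 3 motifs in these 100 bases.

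Over the whole lists, motifs were counted in the 250 bases before the start, a longer window than the sequences shown. The GAGA core was found at 1 of 16 ribosomal protein genes with a member, 4 of 6 heat shock genes, 8 of 9 ecdysone response genes and 7 of 7 developmental transcription factor genes. In the genes of the same lists without a member the counts were 10 of 77, 5 of 17, 9 of 18 and 29 of 44. The DREF site was found at 5 of 16 ribosomal protein genes with a member and 20 of 77 without, and at none of the heat shock, ecdysone or developmental members. The TATA box was found at 6 of 16 ribosomal, 4 of 6 heat shock, 2 of 9 ecdysone and 1 of 7 developmental genes with a member. Without a member the counts were 38 of 77, 11 of 17, 8 of 18 and 11 of 44. The lists were small and their differences were not tested.

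The GAGA core was the commonest of the 9 motifs at the members. It was found before the start at 56.9% of 619 member starts (95% Wilson interval 52.9 to 60.7), against 44.0% of 168 starts with a downstream summit (36.8 to 51.6) and 25.0% of 12716 protein-coding genes with no promoter summit (24.2 to 25.7). Among genes with 1 start the shares were 44.8% with a member and 23.9% without a summit, and among genes with 2 or more starts 63.6% and 28.3%. Here and for the other motifs, members were read at the start nearest the summit and genes without a summit at their outermost start. For genes with 2 or more starts the comparison is thus between unlike starts. Within 100 bp of the summit it was found at 44.7% of members (40.9 to 48.5), against 36.5% of downstream summits (29.6 to 43.9), 20.2% of shared summits (15.9 to 25.4) and 30.0% of summits away from starts (27.6 to 32.6). In the members' own windows 500 bp farther upstream the share was 25.7%. GC content before the start was 43.0% at members and 38.2% at other genes, and its part in these shares was not tested.

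GAGA cores were densest just before the start and had no maximum at the summit. Counted in steps of 50 bp about the start, 31.2% of members had a match at -100 to -51 bp, 24.1% at -150 to -101 bp, 17.0% at -50 to -1 bp and 10.8% at 0 to 49 bp. About the summit the share was 15.6% at -50 to -1 bp and 15.0% at 0 to 49 bp, lower than the 19.2% at -150 to -101 bp and 18.5% at 100 to 149 bp. Members with a GAGA core within 100 bp of the summit had a median signal value of 195 (289 members), and those without one 208 (358 members), so the median was lower with the core.

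The forkhead core had about the same share at these summits as in DNA farther upstream. TGTTTA lay within 100 bp of 23.5% of member summits (95% Wilson interval 20.4 to 26.9) and in 24.3% of the members' windows 500 bp farther upstream. Its mirror form, with the letters in reverse order, was found at 25.8% of the member summits. The stricter forms TGTTTAC or TATTTAC were at 11.9% of summits and 11.4% of the windows farther upstream. Before the start the core was found at 22.8% of member starts (19.6 to 26.2), against 27.8% of other protein-coding genes (27.0 to 28.6). In 50 bp steps about the summit the core was found at 3.40% to 8.19% of members, with the highest share at -50 to -1 bp, and about the start its lowest share was 3.40% at -100 to -51 bp. Median signal values were 207 with the core and 198 without it. A match is a stretch of letters and not a measured site, and the lack of one says nothing about binding by the factor.

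The initiator core lay at the start. TCAGT had its highest share, 31.2% of members, at 0 to 49 bp from the start, against 7.26% to 12.2% in the other steps from -300 to 299 bp. In the 250 bases before the start it was found at 38.9% of member starts and 39.1% of other genes. That window leaves out the step at 0 to 49 bp, so these shares do not compare the core at the start itself. The share of other genes with the core at the start was not taken. The TATA box was found before 31.5% of member starts and 43.3% of other genes, and its mirror form before 41.7% and 50.2%. In 50 bp steps the TATA box was at 12.7% of members just before the summit and 5.56% just before the start. The DREF site was found before 4.04% of member starts (2.75 to 5.89) and 7.82% of other genes (7.37 to 8.30). It was at 12.7% of the members with a summit 0 to 50 bp from the start, 3.5% of those at 101 to 200 bp and none of the 64 at 351 to 500 bp. CGATA, a core of BEAF-32 sites that is contained in the DREF site, was found before 29.7% of member starts and 42.5% of other genes. The M1BP site GGTCACACT was found before 2.42% and 3.02%, and the E-box CACGTG before 3.07% and 2.81%.

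**Figure D5:**
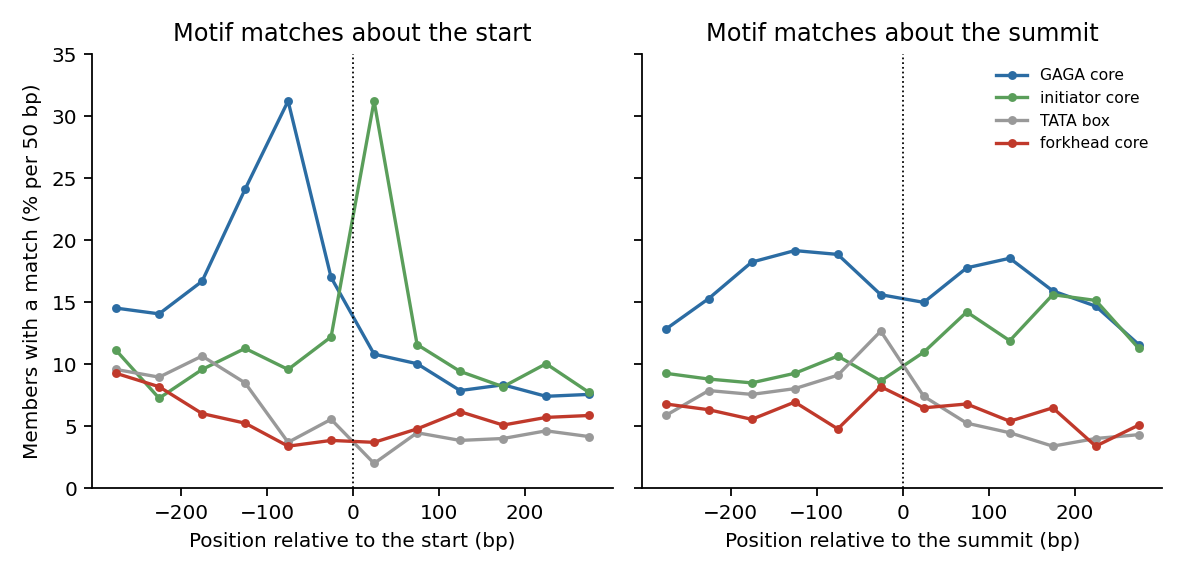
Share of the 647 members with a match of each motif per 50 bp (vertical axis, %) by position about the start of the gene (left) and about the summit (right), in bp on the strand of the gene. The GAGA core peaks at 31.2% at -100 to -51 bp from the start and the initiator core at 31.2% just after it. About the summit the forkhead core stays between 3.40% and 8.19%.

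Genes with a member were long and had several starts. Of the 580 genes 359 (61.9%) had 2 or more annotated starts, against 26.5% of all protein-coding genes, and their median length was 8016 bp, against 2164 bp. The rule gives a gene with more starts more windows, which favours such genes. Of the 647 summits 369 (57.0%) were upstream of every start of their gene, and 278 (43.0%) lay inside the gene, before an inner start. Median signal values of the 2 kinds were close, at 196 upstream of every start and 202 inside. There were 319 summits between protein-coding genes, 72 inside another protein-coding gene and 49 in an exon. Starts of non-coding genes were within 500 bp of 60 members. Most members had the usual width of 416 bp, and 57 were narrower (8.81%).

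Most genes had a single member. There were 520 genes with 1 region, 53 with 2 and 7 with 3: Syp, Rtnl1, brwl, Ptpmeg2, ps, CG46385 and spri. Their 3 summits did not always belong to 3 starts. In Ptpmeg2 each summit was before a start of its own (547 at 199 bp, 399 at 186 bp and 221 at 222 bp). In Syp, 2 regions that overlap, with summits 234 and 30 bp upstream (841 and 277), belonged to the same start and the third (432 at 124 bp) to another. The share of protein-coding genes with a member was similar on the large arms, from 3.65% on 2L (95% Wilson interval 3.00 to 4.43) to 4.92% on X (4.09 to 5.90), and chromosome 4 had 4 of 80.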

How the data were processed

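Regions of chromatin immunoprecipitation with sequencing were deposited as narrowPeak lists in dm6, with 1 list per replicate, 1 for the pooled reads and 1 thresholded list. Per the deposited file sheets, each list came from aligned reads and 1 control file shared by all, and the thresholded list from those lists by an irreproducible discovery rate (IDR) step. Which aligner and peak caller were used is not given in the sources used here. Each region carries the authors' signal value, a score used here only for ranking and description within a list, and a deposited −log10 q-value (1.86 to 2.07 in the thresholded list), which was not used. The thresholded list held the 2415 pooled regions with the highest signal value, and 91.2% of all its regions had the same width of 416 bp. Replicate lists held 30000, 24326 and 22698 regions.

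Starts of all transcripts of protein-coding genes came from Ensembl release 115, and bases from the RefSeq release 6 genome. The 20 mitochondrial regions were left out. Positions are 1-based. No member was equally far from 2 starts. Replicate ranks came from the replicate region with the nearest summit within 200 bp. Gene lists (19) and motifs (9, both strands) were chosen, like the members, with earlier results of these data known. For genes without a summit the outermost start was used. The named genes were the 20 members with the highest signal value, up to 4 per list, and those at the limits of the rule. Further list members, those with 3 regions and the sequences by list were chosen after their values were seen. Shares have 95% Wilson intervals, and limits for a count of 0 use 3 counts. Both cover counting error only. Differences between upstream and downstream summits, and of the upstream share from 50%, were tested over the 3 replicates. The test was an exact 2-sided sign-flip permutation test. The labels call the samples biological replicates. Rank tiers, distance bins and motif positions were chosen after the lists were seen. Sequences printed are those with the highest signal value, leaving out arm 2R, windows with an annotated UTR and, about summits, windows that reach the start. The region rule and motif search were tested on simulated data. Python 3.11.15, numpy 2.4.6, pandas 2.3.3 and scipy 1.17.1 were used. The dm3 lists were not used, and alternatives are given in the closing section.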

Additional observations from a re-analysis of the deposited data

How the results depend on the processing

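The number of members was 471 with a limit of 200 bp, 667 with 1000 bp and 633 with starts of all gene types. It was 400 when only the outermost start of each gene was used, and 410 with regions held by all 3 replicates. Only the count of 410 is smaller by construction, since leaving out inner starts can also add regions. The share held by all 3 replicates depended on the rule: 36.0% with 0.5 times as many best-ranked regions of each replicate, 88.6% with 2 times as many, 56.3% when 0.5 of both regions had to overlap, 53.3% with replicate summits within 100 bp, and 70.9% to 72.5% when 1 replicate was left out and both others had to hold the region. The median signal value was 252 among regions held by all 3 replicates. The median distance was 152.5 bp from the outermost start, 104 bp with the 200 bp limit and 199 bp with the 1000 bp limit. It was 165.5 and 168 bp with the matched summits of replicates 2 and 3. Motif shares followed the window: the forkhead core was at 13.9% of summits within 50 bp and 40.8% within 200 bp, and the GAGA core at 24.1% and 69.7%. Ribosomal protein genes with an upstream summit numbered 23 with the 200 bp limit, 10 with the 1000 bp limit and 11 to 14 when a replicate was left out, against 16 as reported. By the rule, a summit kept at a narrower limit is lost at a wider one only when a start of another gene falls within it. Leaving out a replicate kept only regions held by both others, so those counts cannot exceed the reported one. Among the other motif shares and gene list counts, 80 values stayed within the interval or within 1.5 times the count and 28 did not. The depth of the libraries is unknown, so no interval for the signal of a region can be given.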
